A study of Mus musculus with 6 samples.

Results

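The 10 genes described here belong to the Hippo pathway, its YAP and TAZ effectors and the genes that YAP and TAZ switch on. They were chosen by name (Lats1, Lats2, Ajuba, Ptpn14, Yap1, Wwtr1, Tead1, Ccn1, Ccn2 and Nt5e) from 55416 gene rows, and all 10 passed the low-count filter, which left 16975 genes to test. RNA-seq was made from small intestinal organoids, epithelial cultures grown in gel, derived from mice aged 4 to 8 weeks that were Rosa26-rtTA Tg/Tg at one locus and Col1A1-TetO-OSKM Tg/Tg at the other. Every group, control included, carries both transgenes: the reverse transactivator at Rosa26 and a tetracycline-driven cassette of Oct4 (gene Pou5f1), Sox2, Klf4 and Myc at Col1a1. The control organoids received no doxycycline, and the others were given 0.1 or 0.5 µg/ml for 3 days, with 2 libraries in each group that the series calls biological replicates. Nothing in the labels says whether replicates came from separate animals, and no doxycycline-treated organoid without the transgenes is among the samples, so an effect of the drug itself and of the factors cannot be told apart.

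Library totals ranged from 45289760 to 72547738 expected counts. All 4 induced factors were higher at both doses. The rises ran from 5.62-fold for Myc at 0.1 µg/ml to 2579.8-fold for Pou5f1 at 0.5 µg/ml. Pou5f1 had 12 and 7 counts in the control libraries, so its fold change rests on few control counts. The 9 epithelial markers summed to between 3417 TPM and 4940 TPM in every library (TPM is a gene's share of transcripts, corrected for gene length and scaled to a fixed total). At 0.5 µg/ml 5 of the 9 were higher and 4 lower than in control, beside 34.4% and 33.1% of all tested genes. Krt8 went from a mean of 753 to 1908 TPM and Cdx2 from 99.7 to 30.7 TPM. The 13 fibroblast markers summed to 3.82 and 5.09 TPM in the control libraries, to 2.38 and 2.72 TPM at 0.1 µg/ml and to 3.47 and 3.89 TPM at 0.5 µg/ml. Vim, which made up most of that sum in control, was lower at 0.5 µg/ml (2.96 and 3.60 TPM against 0.20 TPM in both libraries), and the other 12 summed to 0.86 and 1.49 TPM in control, 1.54 and 1.59 TPM at the low dose and 3.27 and 3.69 TPM at the high dose. Of these, Col1a1, at whose locus the cassette sits, was 10.2-fold higher at 0.5 µg/ml (edgeR adjusted p = 5.78e-07), Dcn went from 0 counts in both control libraries to 65 and 108 counts, and Thy1 from 0 to 9 and 22 counts. Pdgfrb was 4.71-fold lower at 0.5 µg/ml (edgeR adjusted p = 1.36e-04). Of the 5 fibroblast markers tested, Vim included, 2 were higher and 2 lower there. The 7 endothelial markers summed to 0.23 and 0.37 TPM in control and to 1.26 and 1.41 TPM at 0.5 µg/ml, with Tek 20.9-fold higher (edgeR adjusted p = 1.49e-06) and Cdh5, Kdr, Cldn5 and Emcn at 0 in both groups. The 10 immune markers went from at most 8.91 TPM in control to at least 16.4 TPM at 0.5 µg/ml, with Cd3e and Fcer1g at 0 counts in both 0.5 µg/ml libraries and Ptprc at 13 and 14 counts there, against 0 in control. Of the 4 immune markers tested, Cd68 and Ptprc were higher and Cd14 and Itgam lower at 0.5 µg/ml, where Cd68 had a mean of 14.2 TPM and Cd14 had gone from 5.19 to 1.72 TPM. The part of stromal, endothelial or immune cells in the results was not tested. In bulk RNA, more cells that express a gene and more RNA per cell cannot be told apart.

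In the Hippo pathway the kinases LATS1 and LATS2 phosphorylate the coactivators YAP (Yap1) and TAZ (Wwtr1), which keeps these out of the nucleus and marks them for breakdown. Unphosphorylated YAP and TAZ bind TEAD transcription factors, since they have no DNA-binding domain of their own, and raise genes of growth, adhesion and the extracellular matrix. In the intestine YAP is known for its role in epithelial regeneration after injury. Several genes that YAP and TAZ raise, Lats2, Ptpn14 and Ajuba among them, themselves encode parts of the pathway. YAP activity is set largely by phosphorylation and location of the protein, which RNA levels do not measure.

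The coactivator partner Wwtr1, the TEAD genes Tead2 and Tead4, and the targets Nt5e and Ccn2 rose steeply with dose. Yap1 and Lats1 changed by small amounts, and Ccn1 did not differ from control past the test at 0.5 µg/ml. Tead3 was lower at 0.5 µg/ml. Of 13 other tested YAP/TAZ target genes 5 were higher and 6 lower there, beside 34.4% and 33.1% of all tested genes. At 0.5 µg/ml against control, 8 of the 10 genes were higher, 1 was lower and 1 did not pass the test. Of all tested genes 67.5% passed in that comparison, 34.4% as higher and 33.1% as lower, so a pass alone sets none of the 10 apart (edgeR quasi-likelihood test, Benjamini-Hochberg adjusted over all genes, two-sided, threshold 0.05). At 0.1 µg/ml against control 6 of the 10 were higher and 1 was lower, beside 20.8% and 13.8% of all genes (34.6% together). Between the doses 9 were higher at 0.5 µg/ml and 1 was lower, beside 29.8% and 29.1% of all genes (58.9% together). In CPM (counts scaled to library size) the groups did not overlap for 10 of the 10 genes at 0.1 µg/ml against control, for 9 at 0.5 µg/ml, where Ccn1 was the exception, and for 10 between the doses. That was true of 67.8%, 84.1% and 80.7% of all tested genes. The 3 comparisons share libraries in pairs, so their counts are not independent of each other. The median log2 fold change of the 10 genes was 0.67 at 0.1 µg/ml and 2.09 at 0.5 µg/ml against control, where that of all tested genes was 0.02 and -0.0045. The 10 genes were chosen with earlier results of these data known, so this contrast is a description and not a test. For the 61 other tested genes of the pathway and adenosine lists used below, the medians were 0.05 and 0.07.

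**Figure D1:**
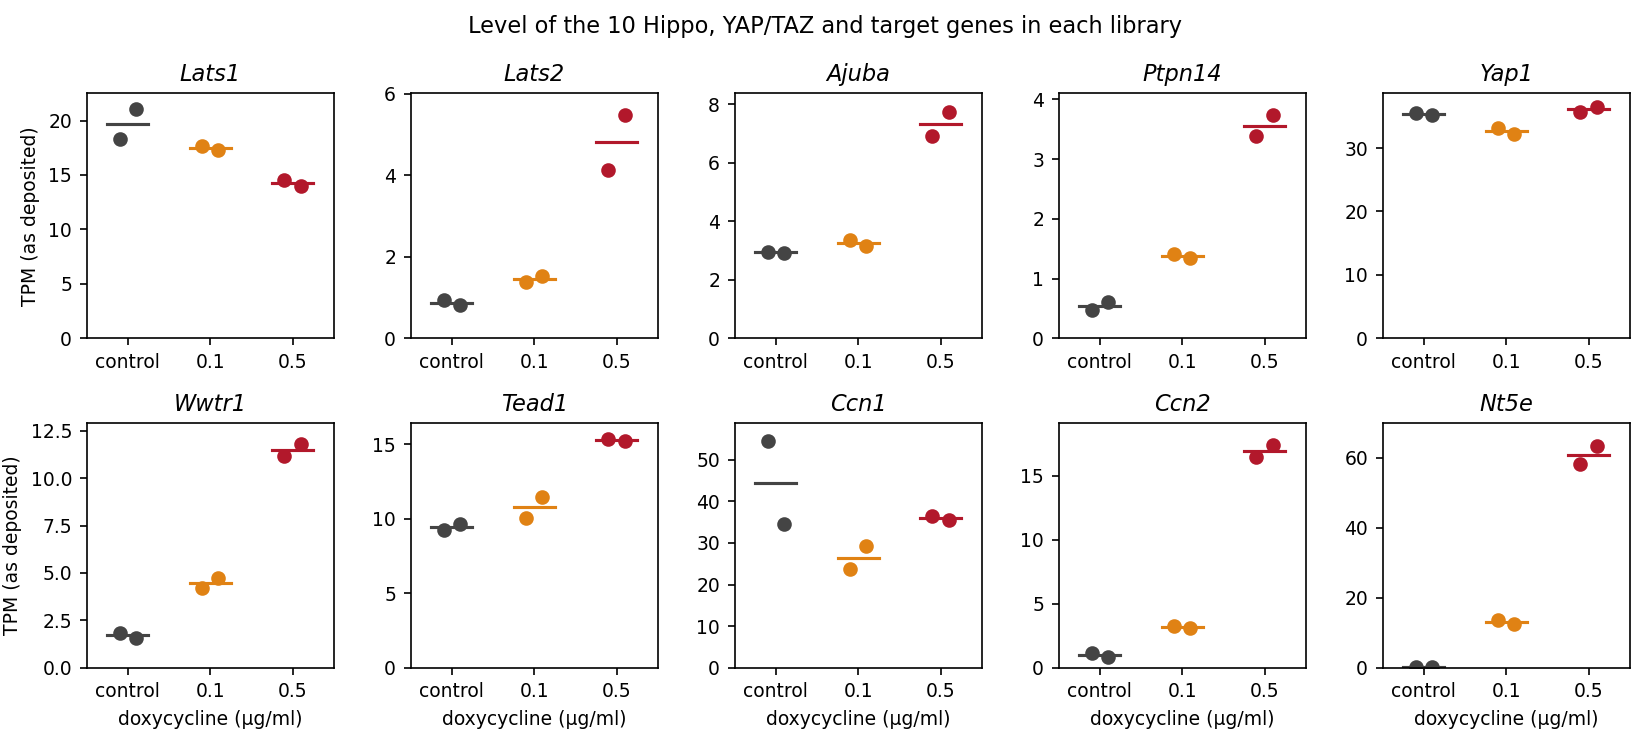
Deposited TPM of each gene in each library, on linear axes from 0, with points for the 2 libraries of a group and a bar at their mean. Nt5e goes from under 0.2 TPM in control to 58.2 and 63.4 TPM at 0.5 µg/ml, while Yap1 stays between 32.2 and 36.6 TPM in all 6 libraries.

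The sequence before the start of transcription is shown for 3 genes that rose at both doses (Nt5e, Ptpn14 and Wwtr1) and for 2 that did not (Yap1 and Ccn1), to set their promoters beside their responses. Each is the 250 bases before the start that RefSeq annotates in build GRCm38.p6, 5′ to 3′ on the strand of the gene, and capitals mark the core TEAD motif GGAATG or its reverse complement CATTCC. For Wwtr1, the first of 2 annotated starts is printed.
Nt5e (GRCm38.p6 chr9:88327359-88327608, + strand): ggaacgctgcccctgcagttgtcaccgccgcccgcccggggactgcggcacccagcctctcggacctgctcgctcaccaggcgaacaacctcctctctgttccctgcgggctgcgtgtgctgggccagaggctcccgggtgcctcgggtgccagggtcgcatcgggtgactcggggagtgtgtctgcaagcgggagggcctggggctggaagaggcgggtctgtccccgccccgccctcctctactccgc
Ptpn14 (GRCm38.p6 chr1:189728018-189728267, + strand): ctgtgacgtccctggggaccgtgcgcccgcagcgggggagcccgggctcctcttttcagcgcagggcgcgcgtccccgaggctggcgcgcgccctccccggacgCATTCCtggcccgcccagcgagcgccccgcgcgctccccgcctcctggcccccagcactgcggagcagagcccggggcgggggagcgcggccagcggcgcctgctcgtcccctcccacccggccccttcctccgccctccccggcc
Wwtr1 (GRCm38.p6 chr3:57575911-57576160, - strand): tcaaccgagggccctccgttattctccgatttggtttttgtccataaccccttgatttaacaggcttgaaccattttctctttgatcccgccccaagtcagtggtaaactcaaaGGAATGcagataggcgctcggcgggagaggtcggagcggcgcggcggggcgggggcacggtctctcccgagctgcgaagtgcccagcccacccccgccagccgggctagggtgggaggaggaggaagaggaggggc
Yap1 (GRCm38.p6 chr9:8004597-8004846, - strand): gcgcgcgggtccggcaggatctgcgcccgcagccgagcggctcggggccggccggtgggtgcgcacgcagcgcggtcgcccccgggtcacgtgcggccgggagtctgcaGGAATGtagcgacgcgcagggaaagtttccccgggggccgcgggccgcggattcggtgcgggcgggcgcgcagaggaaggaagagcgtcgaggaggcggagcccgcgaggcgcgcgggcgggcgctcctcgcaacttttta
Ccn1 (GRCm38.p6 chr3:145649986-145650235, - strand): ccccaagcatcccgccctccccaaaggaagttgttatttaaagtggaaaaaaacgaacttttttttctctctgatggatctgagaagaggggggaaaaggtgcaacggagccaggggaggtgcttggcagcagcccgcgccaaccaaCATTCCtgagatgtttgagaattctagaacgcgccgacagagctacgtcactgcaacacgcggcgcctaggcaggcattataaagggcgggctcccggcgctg
The windows of Ptpn14, Wwtr1, Yap1 and Ccn1 each held 1 match to the TEAD core, the first base of which lay at position -146, -136, -141 and -103, counting -1 as the base before the start. The Nt5e window held none. RefSeq windows were found for 8 of the 10 genes. Tead1 and Ccn2 had no entry. Ajuba held 2 matches, at -186 and -164, and Lats1 and both windows of Lats2 held none. A stretch just after the start was sought in the GENCODE M21 transcripts of the same gene. It was found for every window except that of Ajuba, so the Ajuba start is less certain. A match places the stretch within a transcript and does not show that transcription starts at that base. The core was present for 5 of the 8 genes, in 6 of their 10 windows. Among all 32851 RefSeq windows of that length it was in 12.6%, a share of windows and not of genes. The 2 windows of Wwtr1 overlap and hold the same match. The genes with a match thus include Wwtr1, Ptpn14 and Ajuba, which were higher at 0.5 µg/ml, and also Yap1 and Ccn1. Of 3 other motifs searched on both strands, the AP-1 site TGANTCA and the octamer ATGCAAAT were in none of the 10 windows (6.75% and 1.60% of all windows), and the E-box CACGTG was in those of Yap1 and Lats2, at -163 and -10 (6.02% of all windows).

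The 2 kinase genes went in opposite directions. Lats1 (ENSMUSG00000040021, chromosome 10) stood at 18.3 and 21.1 TPM in control, 17.6 and 17.3 TPM at 0.1 µg/ml, and 14.6 and 14.0 TPM at 0.5 µg/ml. All 3 groups were apart, in descending order. The fall at 0.5 µg/ml against control was 0.34 ± 0.055 on the log2 scale, or 1.27-fold lower (fitted value ± SE, n = 2 against 2; edgeR adjusted p = 3.28e-04). At 0.1 µg/ml the log2 difference was -0.13 ± 0.054, which did not pass (edgeR adjusted p = 0.0978).

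Lats2 (ENSMUSG00000021959, chromosome 14), the kinase that YAP itself induces in other settings, read 0.94 and 0.81 TPM in control, 1.38 and 1.52 TPM at 0.1 µg/ml, and 4.14 and 5.49 TPM at 0.5 µg/ml. Every treated library was above every control library. The rise was 2.12-fold at 0.1 µg/ml (log2 1.08 ± 0.12, edgeR adjusted p = 8.71e-05) and 6.63-fold at 0.5 µg/ml (log2 2.73 ± 0.11, edgeR adjusted p = 1.69e-08). On the TPM scale the call at 0.1 µg/ml turned on the pseudocount: limma gave a difference of 0.39 on log2(TPM + 1), which did not pass (adjusted p = 0.0723), and of 0.67 on log2(TPM + 0.1), which did (adjusted p = 0.0374). Lats2 amounted to 5.15% and 3.85% of Lats1, both as TPM, in the control libraries, and to 28.4% and 39.2% at 0.5 µg/ml. Summed over both genes, LATS transcripts stayed between 18.7 and 21.9 TPM in all 6 libraries, with 71.8% of the sum from Lats1 in the lowest library and 96.3% in the highest.

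Ajuba and Ptpn14 encode regulators that act on LATS and YAP. Ajuba (ENSMUSG00000022178, chromosome 14) codes for a LIM-domain scaffold that restrains LATS kinases. It read 2.96 and 2.93 TPM in control, 3.37 and 3.14 TPM at 0.1 µg/ml, and 6.92 and 7.73 TPM at 0.5 µg/ml. The high-dose libraries lay far above the other 4, and the rise there was 2.74-fold (log2 1.45 ± 0.090, edgeR adjusted p = 3.64e-07). At 0.1 µg/ml the log2 difference of 0.20 ± 0.093 did not pass (edgeR adjusted p = 0.128), so 13.8% of the log2 change fitted at 0.5 µg/ml was seen at the low dose, a smaller share than for Lats2 (39.6%) or Ptpn14 (45.5%). These shares are descriptions, and their differences were not tested.

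Ptpn14 (ENSMUSG00000026604, chromosome 1) codes for a phosphatase-family protein that binds YAP and holds it in the cytoplasm. Its levels were 0.48 and 0.61 TPM in control, 1.41 and 1.34 TPM at 0.1 µg/ml, and 3.38 and 3.74 TPM at 0.5 µg/ml. The 3 groups did not overlap. Ptpn14 rose 2.37-fold at 0.1 µg/ml (log2 1.24 ± 0.10, edgeR adjusted p = 1.40e-05) and 6.63-fold at 0.5 µg/ml (log2 2.73 ± 0.098, edgeR adjusted p = 7.35e-09), a fitted value at the high dose equal to that of Lats2 within either SE.

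Of the coactivators, Yap1 (ENSMUSG00000053110, chromosome 9) was the more abundant in every library, at 35.5 and 35.2 TPM in control, 33.1 and 32.2 TPM at 0.1 µg/ml, and 35.7 and 36.6 TPM at 0.5 µg/ml. The low-dose libraries were the lowest and the high-dose libraries the highest, over a narrow range. At 0.5 µg/ml Yap1 was 1.09-fold higher than in control (log2 0.12 ± 0.042, edgeR adjusted p = 0.0318), a call that ended in 9 of 15 alternatives, with adjusted p from 0.0192 to 0.576. Among these it ended without the second control library (adjusted p = 0.318), the second at 0.1 µg/ml (0.102) and either at 0.5 µg/ml (0.249 and 0.115). With all 6 libraries kept, the call also ended under upper quartile normalization (log2 0.029, edgeR adjusted p = 0.545). At 0.1 µg/ml the log2 difference was -0.097 ± 0.042 and did not pass (edgeR adjusted p = 0.108). The rise from the low to the high dose, 1.16-fold, passed (edgeR adjusted p = 0.00167).

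Wwtr1 (ENSMUSG00000027803, chromosome 3), which encodes TAZ, stood at 1.85 and 1.59 TPM in control, 4.20 and 4.71 TPM at 0.1 µg/ml, and 11.2 and 11.8 TPM at 0.5 µg/ml. No 2 groups overlapped. It rose 2.64-fold (log2 1.40 ± 0.088, edgeR adjusted p = 2.22e-06) and then 7.15-fold over control (log2 2.84 ± 0.085, edgeR adjusted p = 2.35e-09). In TPM, Wwtr1 equalled 5.22% and 4.52% of Yap1 in the control libraries, 12.7% and 14.6% under the low dose, and 31.3% and 32.2% under the high dose. The sum of both went from 37.3 and 36.8 TPM in control to 46.9 and 48.3 TPM at the high dose, while Yap1 remained its larger part.

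Tead1 (ENSMUSG00000055320, chromosome 7), a DNA-binding partner of YAP and TAZ, read 9.22 and 9.67 TPM in control, 10.1 and 11.5 TPM at 0.1 µg/ml, and 15.3 and 15.2 TPM at 0.5 µg/ml. It rose 1.70-fold at 0.5 µg/ml (log2 0.76 ± 0.052, edgeR adjusted p = 6.83e-07). The rise of 1.19-fold at 0.1 µg/ml (edgeR adjusted p = 0.00461) did not hold without the second library at that dose (adjusted p = 0.0555) or with limma on log2(TPM + 1) (adjusted p = 0.15).

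Of the other TEAD genes, Tead2 and Tead4 changed more than Tead1. Tead2 went from 5.60 and 4.84 TPM in control to 20.97 and 17.75 TPM at 0.1 µg/ml and 83.6 and 93.1 TPM at 0.5 µg/ml, a 19.4-fold rise at the high dose (log2 4.28 ± 0.068, edgeR adjusted p = 4.73e-11). Tead4 went from 0.76 and 0.59 TPM to 2.68 and 2.53 TPM and then 15.5 and 17.0 TPM, a rise of 27.0-fold (log2 4.75 ± 0.096, edgeR adjusted p = 1.89e-10). Tead3 fell by 0.73 ± 0.073 on the log2 scale at 0.5 µg/ml, from 12.8 and 11.6 TPM to 7.15 and 7.20 TPM (edgeR adjusted p = 1.27e-05). The TPM of the 4 TEAD genes together went from 28.4 and 26.7 in control to 44.0 and 43.5 and then to 122 and 132. Tead1 made up 32.5% and 36.3% of that sum in control and 12.6% and 11.5% at 0.5 µg/ml, by which point Tead2 was the most abundant of the 4.

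**Figure D2:**
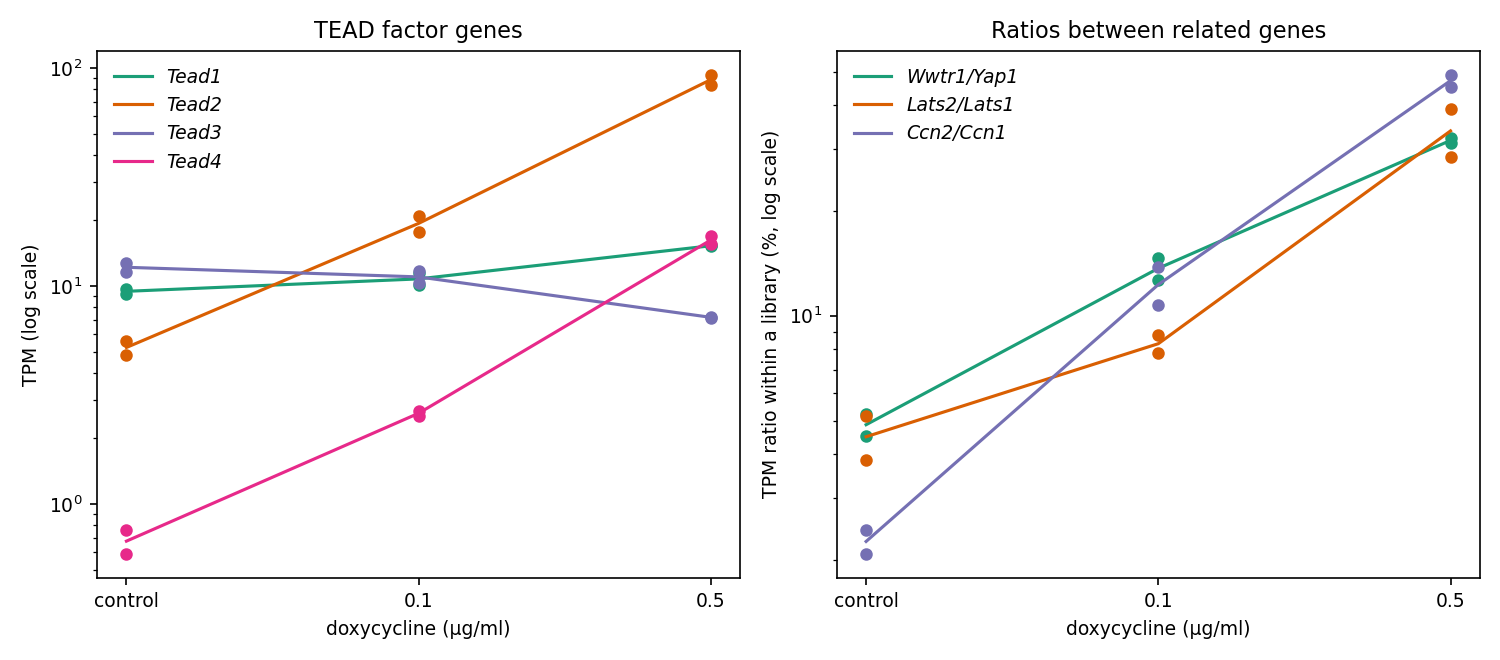
Left, TPM of the 4 TEAD genes on a log axis; right, the TPM of Wwtr1, Lats2 and Ccn2 as a percentage of Yap1, Lats1 and Ccn1 in the same library, also on a log axis. Points are libraries and lines join group means: Tead2 and Tead4 climb, Tead3 goes down, and all 3 ratios are higher at each dose than in control.

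Cofactors that bind TEAD through their own domain were divided. Vgll3, a TEAD coactivator of the vestigial-like family, rose 11.5-fold at 0.5 µg/ml, from 0.42 and 0.56 TPM to 5.63 and 6.17 TPM (edgeR adjusted p = 3.57e-09). Vgll4, which competes with YAP for TEAD, fell by 0.60 ± 0.042 on the log2 scale, from 60.8 and 61.8 TPM to 37.7 and 38.4 TPM (edgeR adjusted p = 9.68e-07). Of the 10 listed coactivators, TEAD factors and cofactors, 8 were tested, of which 6 were higher and 2 lower at 0.5 µg/ml, with a median log2 fold change of 1.80. Without Yap1, Wwtr1 and Tead1, which are on that list, 3 of 5 were higher and 2 lower, beside 34.4% and 33.1% of all tested genes. Vgll1 and Vgll2 were too low to test.

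The 3 genes that are targets without a role in the cascade behaved differently from each other. Nt5e (ENSMUSG00000032420, chromosome 9) encodes CD73, the surface enzyme that turns extracellular AMP into adenosine. It read 0.16 and 0.18 TPM in control, from 27 and 29 counts, then 13.6 and 12.6 TPM at 0.1 µg/ml, and 58.2 and 63.4 TPM at 0.5 µg/ml. It was the least abundant of the 10 genes in control and the most abundant at the high dose. Nt5e rose 76.7-fold (log2 6.26 ± 0.097, edgeR adjusted p = 1.99e-10) and 374-fold over control (log2 8.55 ± 0.090, edgeR adjusted p = 5.07e-12), and its log2 fold change exceeded that of 99.2% and 99.0% of all tested genes. Of the log2 change at 0.5 µg/ml, 73.3% was present at 0.1 µg/ml. CD73 is also found on stromal and immune cells, whose marker sums are given above, and their part in the rise was not tested.

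Ccn2 (ENSMUSG00000019997, chromosome 10) and Ccn1 (ENSMUSG00000028195, chromosome 3) encode related secreted matricellular proteins, CTGF and CYR61, and are the most widely used YAP/TAZ readouts. Ccn2 went from 1.13 and 0.84 TPM in control to 3.27 and 3.14 TPM at 0.1 µg/ml and 16.5 and 17.4 TPM at 0.5 µg/ml. No groups overlapped. It rose 3.27-fold (log2 1.71 ± 0.13, edgeR adjusted p = 7.93e-06) and 18.1-fold over control (log2 4.18 ± 0.12, edgeR adjusted p = 1.40e-09). Its counts were not whole in any of the 6 libraries, as happens where RSEM divides reads between rows, and an overlapping transcript on the other strand, Gm15270, held 1.63% as many counts. Stromal cells also express Ccn2. The 13 fibroblast markers summed to 3.82 and 5.09 TPM in control and to 3.47 and 3.89 TPM at 0.5 µg/ml. Without Vim their sum was higher at 0.5 µg/ml, although Pdgfrb was lower, as given above. The part of stromal cells in the rise of Ccn2 was not tested.

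Ccn1 stood at 54.4 and 34.5 TPM in control, 23.7 and 29.3 TPM at 0.1 µg/ml, and 36.4 and 35.5 TPM at 0.5 µg/ml. The high-dose libraries lay between the 2 control libraries, which were far apart, and the low-dose libraries lay below both. At 0.5 µg/ml its log2 difference from control was -0.21 ± 0.18 and did not pass (edgeR adjusted p = 0.318). Without the first control library the difference was 0.17 (adjusted p = 0.161), and without the second it was -0.55 (adjusted p = 7.52e-04), so the single control libraries decide its sign. The fall at 0.1 µg/ml, 1.65-fold (log2 -0.72 ± 0.18, edgeR adjusted p = 0.0125), did not hold with DESeq2 (adjusted p = 0.0551) or once the first low-dose library was left out (log2 -0.60, adjusted p = 0.0923). The rise between the doses (log2 0.51 ± 0.18, edgeR adjusted p = 0.0354) ended in 8 of 15 alternatives, the omission of that same low-dose library (adjusted p = 0.187) or of either high-dose library (0.143 and 0.0966) among them. The first control library was also higher than the second for all 12 of a list of immediate-early genes, by 1.13 to 1.82-fold in TPM (Ccn1 itself 1.58-fold), where 36.5% of genes of at least 1 TPM in both were higher in the first. That list was written after the Ccn1 values were seen, and its part in the Ccn1 result was not tested. Ccn2 as a percentage of Ccn1 in the same library, both in TPM, was 2.08% and 2.43% without doxycycline, 13.8% and 10.7% with the low dose, and 45.2% and 49.0% with the high dose.

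**Figure D3:**
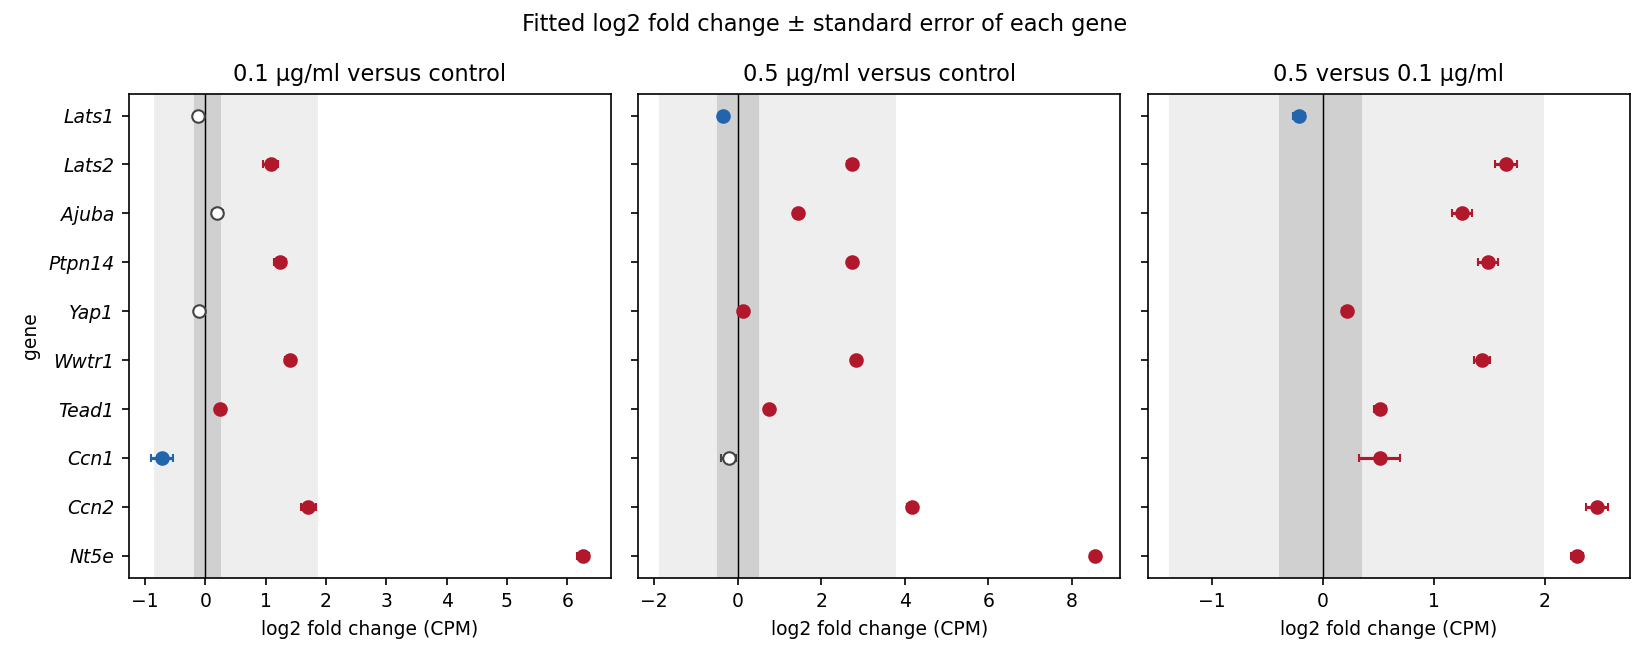
Log2 fold change of each gene with its standard error in the 3 comparisons, from the fit across all genes. Filled red and blue points passed the test as higher and lower, open points did not, and the light and dark bands hold the middle 90% and the middle 50% of all tested genes. Nt5e lies outside the light band in all 3 panels.

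Set side by side, the 4 genes that act only as pathway parts (Yap1, Wwtr1, Tead1 and Lats1) had a median log2 fold change of 0.44 at 0.5 µg/ml, over a range from -0.34 to 2.84. The 3 that are targets alone (Ccn1, Ccn2 and Nt5e) had a median of 4.18, from -0.21 to 8.55, and the 3 that are both (Lats2, Ptpn14 and Ajuba) had 2.73, from 1.45 to 2.73. The corresponding low-dose medians were 0.08, 1.71 and 1.08. Ajuba is classed here as a target, but it is not among the 21 genes of the target signature used below. The ranges overlapped, since Wwtr1 exceeded all 3 genes of the mixed class and Ccn1 was below 3 of the 4 pathway parts, and the difference between the classes was not tested. The order of levels changed as well. In control it ran Ccn1, Yap1, Lats1, Tead1, Ajuba, Wwtr1, Ccn2, Lats2, Ptpn14 and Nt5e by mean TPM, and the neighbours Ccn1 and Yap1, and Ccn2 and Lats2, overlapped. At 0.5 µg/ml it ran Nt5e, Yap1, Ccn1, Ccn2, Tead1, Lats1, Wwtr1, Ajuba, Lats2 and Ptpn14, where Yap1 and Ccn1 alone among neighbours overlapped.

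The rest of the pathway was read from lists that were written with earlier results of these data known, here without the 10 genes. Of 21 upstream kinases and scaffolds other than Lats1 and Lats2, 20 were tested, and at 0.5 µg/ml 10 were higher, 4 lower and 6 did not pass, beside 34.4% higher and 33.1% lower of all tested genes. Their median log2 fold change was 0.14. The core kinase genes Stk3 and Stk4, which encode MST2 and MST1, and the adaptor gene Sav1 had log2 differences of 0.12, 0.03 and 0.08 and did not pass (edgeR adjusted p = 0.128, 0.611 and 0.153). Taok1, a kinase gene upstream of MST, rose 2.82-fold from 8.36 and 9.19 TPM to 22.9 and 23.0 TPM. Map4k4, which encodes a kinase acting in parallel with MST, rose 2.33-fold, and Nf2, the membrane scaffold merlin, rose 2.23-fold from 33.9 and 34.4 TPM to 72.5 and 79.9 TPM. Among the genes that were lower, Tnik fell by 1.08 on the log2 scale and Frmd6 by 0.44. The atypical cadherin Fat4 was lower at counts of 21 and 31 in control and 2 and 4 at 0.5 µg/ml, and Dchs1 was too low to test.

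Of 12 genes for inhibitors of YAP and TAZ and antagonists of LATS other than Ptpn14 and Ajuba, 8 were higher, 3 lower and 1 did not pass at 0.5 µg/ml, beside the same 34.4% and 33.1%, with a median log2 fold change of 0.34. The angiomotin family, whose proteins bind YAP at junctions, was split. Amotl1 rose 4.98-fold, from 0.19 and 0.28 TPM to 1.00 and 1.25 TPM, and Amotl2 rose 2.45-fold, from 3.16 and 2.37 TPM to 6.44 and 7.83 TPM. Amot, the most abundant of the family in control, fell by 0.99 on the log2 scale, from 24.3 and 23.4 TPM to 10.8 and 11.4 TPM. Ywhaz, which encodes a 14-3-3 protein that retains phosphorylated YAP in the cytoplasm, rose 2.03-fold. Btrc, for an F-box protein that targets YAP and TAZ for breakdown, fell by 0.58, and Limd1, a relative of Ajuba, by 0.23, both on the log2 scale. An overlapping row on the other strand held 13.9% as many counts as Btrc, and whether strand was used in counting is not stated here.

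The signature of 21 YAP/TAZ target genes did not move as a block. Of the 18 tested, 9 were higher, 6 lower and 3 did not pass at 0.5 µg/ml, with a median log2 fold change of 0.24. Leaving out the genes that are among the 10, 5 of 13 were higher and 6 lower, 38.5% and 46.2%, beside 34.4% and 33.1% of all tested genes, with a median of -0.64. Asap1, Dock5 and Amotl2 had the highest values of those outside the 10. Asap1, which encodes a regulator of ARF GTPases, rose 3.73-fold from 2.44 and 3.12 TPM to 11.2 and 11.5 TPM, and the guanine nucleotide exchange factor gene Dock5 rose 3.11-fold from 9.61 and 10.3 TPM to 30.4 and 31.1 TPM. The 3 with the lowest values were Axl and Igfbp3, at 33 counts or fewer in any library, and Crim1, which fell by 1.76 on the log2 scale from 12.2 and 11.6 TPM to 3.64 and 3.32 TPM. Crim1 overlaps Fez2 on the other strand, whose counts were 44.6% as many as its own. Tgfb2, Foxf2 and Fjx1 were too low to test. At 0.1 µg/ml 3 of the same 13 were higher and 3 lower, 23.1% each, beside 20.8% and 13.8% of all tested genes. Between the doses 5 were higher and 4 lower, 38.5% and 30.8%, beside 29.8% and 29.1% of all tested genes. Of the CCN family only Ccn1 and Ccn2 passed the filter, and Ccn3, Ccn4, Ccn5 and Ccn6 were too low to test.

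**Figure D4:**
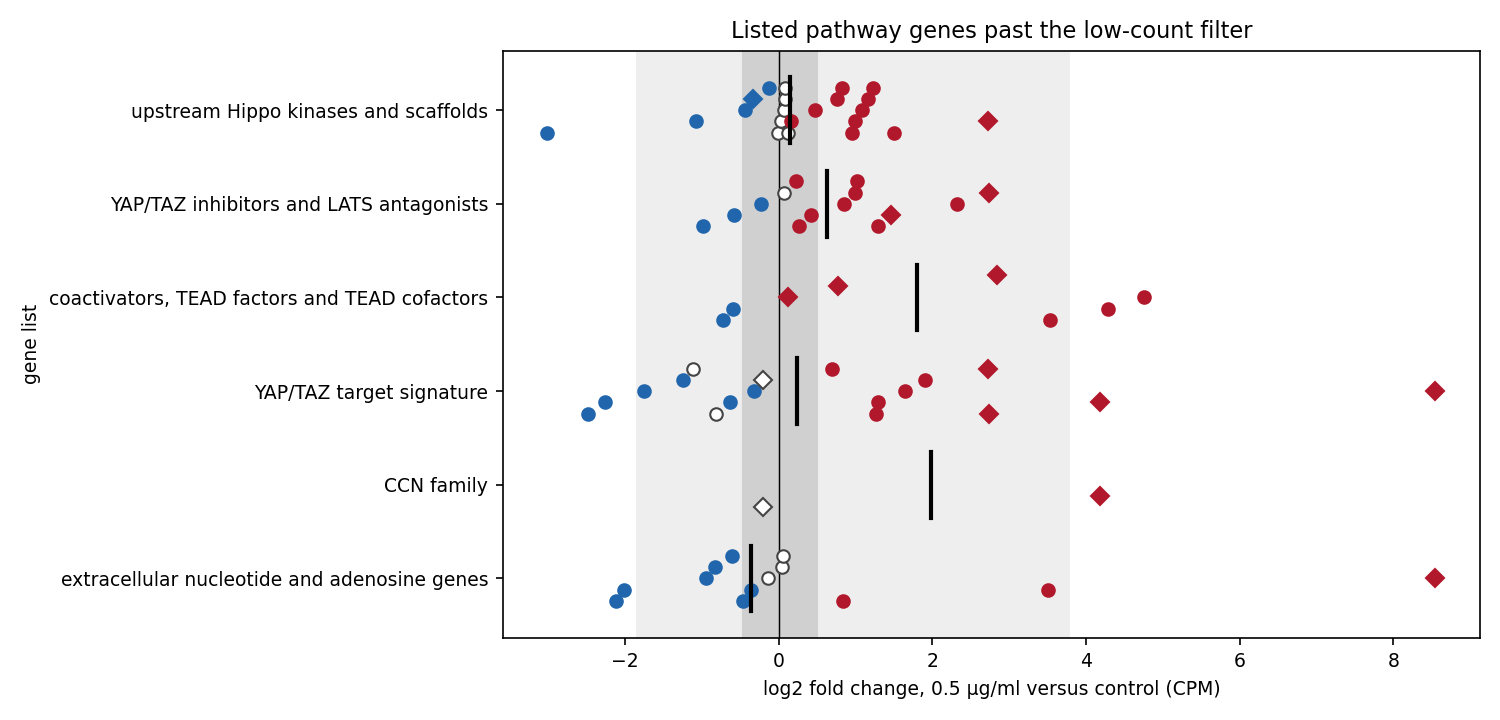
Log2 fold change at 0.5 µg/ml against control of every tested gene in 6 pathway lists, with diamonds for the 10 genes described above and circles for other genes. Colours and bands are as in the plot of log2 fold change by gene and vertical bars are list medians, which run from -0.36 for the adenosine genes, Nt5e included, to 1.98 for the CCN family, where 2 genes were tested.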

How the data were processed

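The authors deposited RSEM expected counts, which are estimated counts per gene, and TPM for the same genes and 6 libraries. The submitters' processing notes list STAR 2.7.3a, RSEM 1.3.3, Trim Galore and FastQC, and 2 builds, GRCm39 and mm10, without roles. The strand setting used in counting was not given in these sources. Per the labels' protocols, libraries were strand-specific and poly-A selected. Identifiers were paired with symbols through GENCODE M21 (52083 of 55416, 93.99%).

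Expected counts were rounded and filtered with filterByExpr, which left 16975 genes holding 99.96% of the counts. A single quasi-likelihood fit (edgeR 4.0.16, R 4.3.3) held all 6 libraries, with TMM factors (0.964 to 1.04), a mean per group and no covariate, leaving 3 residual degrees of freedom. Each fold change comes from this fit and is on the CPM scale. The SE was taken from the F statistic. p-values are Benjamini-Hochberg adjusted over all tested genes at 0.05. With 2 against 2 libraries an exact permutation test of a single value cannot go below 0.333, so p-values rest on spread shared across genes and measure only that between these libraries. Replicates differed beyond sampling noise (chi-square per degree of freedom 8.24 to 9.35). Levels are compared between genes in TPM only, which carries no depth. The 15 alternatives include DESeq2 1.42.0 and limma 3.58.1, and the procedure was tested on simulated data.

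The 10 genes and all lists were chosen with earlier results of these data known. Other genes named are, from each list, the 3 highest and 3 lowest that passed at 0.5 µg/ml, and the 3 genes nearest in profile to Yap1, Ccn2 and Nt5e. Those named beyond that rule, after their values were seen, are Stk3, Stk4, Sav1, the cell type markers, Enpp3, Alpi and the overlapping genes. Promoter sequences are from RefSeq on GRCm38.p6 and were matched by symbol. The level of 1 immune marker is not reported here.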

Additional observations from a re-analysis of the deposited data

How the results depend on the processing

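Of 30 results, the log2 fold change of each of the 10 genes in each comparison, 21 kept their direction and side of the threshold in all 15 alternatives. The others were those of Yap1, Lats1, Tead1, Lats2 and Ccn1. The 1 reversal was that of Ccn1 at 0.5 µg/ml against control, which ranged from -0.55 to 0.17 as single libraries were left out. With every gene of at least 1 count that fall passed the test (log2 -0.22, edgeR adjusted p = 4.55e-04). For Ccn1 at 0.1 µg/ml the same setting gave an edgeR adjusted p of 1.44e-35, in place of 0.0125 in the main fit. No weight is therefore put on that pass. Lats1 at 0.1 µg/ml passed in 3 alternatives and Yap1 in 1. The fall of Lats1 between the doses was lost in 3, among them when the first low-dose library (adjusted p = 0.0625) or the second high-dose library (0.0684) was left out.

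Genes past the test at 0.1 µg/ml against control numbered 5881 of 16975 tested (34.6%). With limma they numbered 3505 of 13313 on log2(TPM + 1) and 3508 of 13313 on log2(TPM + 0.1). Limma on log2(TPM + 1) over every gene above 0 gave 2520 of 28962. With that last setting 4 of the 10 genes passed in place of 7, and 25 listed pathway genes in place of 38. Leaving out single libraries gave 3800 to 5248, the lowest with the first low-dose library omitted. The cause was not tested. With the replicate number as a block, 5265, 11162 and 9607 genes passed in the 3 comparisons in place of 5881, 11465 and 10002, and 7, 9 and 10 of the 10 genes, as without the block. The labels do not say that a number pairs libraries, and deviations of same-numbered libraries correlated at -0.13 between control and 0.1 µg/ml, 0.12 between control and 0.5 µg/ml, and -0.041 between the doses. With 2 libraries in a group, leaving 1 out assumes that the lone library varies like the others.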

Other observations

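Genes that act around CD73 were divided. Of 14 listed genes of extracellular nucleotide and adenosine handling other than Nt5e 12 were tested, and at 0.5 µg/ml 2 were higher, 7 lower and 3 did not pass, beside 34.4% higher and 33.1% lower of all tested genes, with a median log2 fold change of -0.41. Slc28a2, a sodium-coupled nucleoside transporter, rose 11.4-fold from 0.35 TPM in both control libraries to 3.78 and 4.13 TPM (edgeR adjusted p = 1.21e-08), and the adenosine receptor gene Adora2a rose 1.78-fold at 60 counts or fewer in any library. At 0.1 µg/ml Adora2a was 2.39-fold lower than in control (edgeR adjusted p = 0.0163). Adora1, another adenosine receptor, fell by 2.01 on the log2 scale from 4.24 and 5.58 TPM to 1.03 and 1.17 TPM (edgeR adjusted p = 6.09e-07). Enpp1, which makes AMP from ATP, fell by 0.95 and Entpd3, which breaks down ATP and ADP, by 2.12 on the log2 scale. Entpd1, the CD39 gene, held at most 1 count in any library and Adora3 was also too low to test. Alpi and Enpp3 were higher at 0.1 µg/ml than in control, 2.19-fold and 2.28-fold, and lower at 0.5 than at 0.1 µg/ml by 1.09 and 1.80 on the log2 scale (edgeR adjusted p from 6.50e-06 to 1.88e-04).

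Nearest in profile over the 6 libraries, by Euclidean distance between log2 CPM relative to the control mean among 13809 genes, were Nup98, Mycbp2 and Usp43 for Yap1 (0.0463 to 0.0552), Prdm1, Aldh3b2 and Fosl1 for Ccn2 (0.206 to 0.338), and Hdgfl3, Cyp4f39 and Mroh4 for Nt5e (0.387 to 0.635). Prdm1 went from a mean of 0.945 TPM in control to 2.98 and 16.5 TPM at the 2 doses, beside 0.985, 3.21 and 16.9 TPM for Ccn2.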
